A study of Mus musculus with 26 samples.

Results

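The *Zfp* genes of the mouse are a numbered series of zinc finger genes, most of them coding for proteins that bind DNA through a row of C2H2 fingers, short loops in which pairs of cysteines and histidines hold a zinc ion. Many also carry a KRAB domain, which recruits Trim28 and, through it, enzymes that write and read silent chromatin, and the best known targets of such repressors are retroelements. Other members bind RNA, act on ribosomes or steer the development of neurons, and in brain the family is broadly but thinly expressed. Members were taken by gene symbol alone, as every symbol that starts with Zfp and goes on with a digit. The deposited tables of both transgenic comparisons list 155 such transcripts of 154 symbols among 8576 transcripts, and the table of the knockout comparison lists 224 of 222 symbols among 9561. All 154 symbols stand in each table and 68 more stand only in the knockout table. The annotation of the same genome build holds 367 protein-coding symbols of this form, and 221 of the 222 were matched to it.

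Ribosome footprints and total RNA were sequenced from the caudate putamen (striatum) of C57BL/6 mice, 3 months old by the sample labels, with tissue of 3 mice of mixed sex pooled per sample. GS LRRK2 TG mice carry *LRRK2* with the Parkinson's disease mutation G2019S, which raises kinase activity, and GS/DA LRRK2 TG mice carry G2019S with D1994A, which abolishes it. Both transgenes are of the Tet-off kind in high copy lines, driven by tTA under the CaMKII promoter and therefore expressed in forebrain neurons, and breeding cages received doxycycline food until weaning. Non-transgenic (nonTG) littermates were the controls of both, while LRRK2 KO mice, in which the gene is disrupted, were set against wild-type (WT) mice. NonTG controls have 3 footprinting and 3 RNA-Seq libraries, either transgenic line has 2 and 2, and WT and LRRK2 KO have 3 footprinting and 2 RNA-Seq libraries each, besides 1 footprinting library each of ventral midbrain that no table used here holds. The footprinting means of WT and LRRK2 KO resolve into 2 libraries each, so 1 of the 3 striatal ones is not in them. The comparisons ask how a hyperactive kinase, the same protein without kinase activity, and the loss of the protein bear on translation.

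The deposited files give a single normalized mean per group and assay, without a spread. Because such a mean is a sum of whole reads divided by size factors, values of single libraries could be read back from it, 2 per group and assay, for every *Zfp* gene. The exception is nonTG control in the table of GS LRRK2 TG, whose means were not resolved. For GS LRRK2 TG, its own 2 libraries per assay therefore stand against a control mean, with no replicate check and no p-value. Elsewhere, the 2 libraries of the genotype were paired off with those of its control, as set 1 and set 2. The pairing lines up the library difference common to both. Libraries and sets were numbered within each assay, so the same number in footprinting and RNA-Seq need not mean the same tissue pool. Reads summed per library ran from 7479218 to 19171629 for footprinting and from 8696465 to 14544748 for RNA-Seq in the transgenic tables, and from 2865413 to 6032948 and from 3131554 to 10862320 in the knockout table. Translation efficiency (TE) is the log2 ratio of footprints to RNA in a group, and the TE difference is TE of the genotype minus TE of its control. A transcript is called TE up or TE down when its TE difference lies 1.5 SD or more above or below the mean of all transcripts of its table.

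*Lrrk2* itself checks the labels. Its footprints averaged 2524 normalized reads in nonTG control and 5186 in GS LRRK2 TG, 1335 and 6017 for the control of GS/DA LRRK2 TG and the line itself, and 545 in WT and 126 in LRRK2 KO. The footprinting difference was 1.04, 2.17 and -2.12 on the log2 scale, each in the direction of the label. RNA-Seq had differences of -0.16, -0.09 and -1.54, so the mean RNA of the transgenic lines shows no excess of *Lrrk2*, and for them the labels are checked by footprints only; the reason was not tested. In GS LRRK2 TG the 2 RNA-Seq libraries held 3550 and 214.2 reads of it, against a control mean of 2105. The GS LRRK2 TG libraries held 3321 and 7052 footprinting reads of the gene, so the first lies much nearer to its control mean, and the control means of the 2 transgenic tables differ, at 2524 and 1335 reads. Of 10 symbols of markers of striatal projection neurons, 9 are listed in each table, *Ppp1r1b* being the most abundant of them per length. All 5 astrocyte markers are listed in each table too, so being listed does not check that the tissue is striatum.

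A part of the *Zfp* genes sits in clusters. Of the 154 genes placed on the genome (mm9), 40 lie on chromosome 7, which is 26.0% against 7.31% of all transcripts of the table. A neighbour of the same series lies within 100 kb for 44 of the 154 genes (28.6%), and for 92 of 221 (41.6%) in the knockout table. The longest run in the transgenic tables covers chr7:24866943-25061846 and holds *Zfp180*, *Zfp235*, *Zfp111*, *Zfp109*, *Zfp108* and *Zfp93*. The knockout table adds *Zfp114* and *Zfp61* to the same run.

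The coding sequence (CDS) shows what the members share. Their median CDS length was 1845 bases against 1461 for all transcripts, and a median member held 9 C2H2 motifs, with 7 of 155 transcripts holding none by this motif search. GC content was 51.6% at the median, against 52.8% for all transcripts, and 49.3% in the knockout table, where the added members are richer in A and T. A KRAB-like stretch was found in 39 of the 155 transcripts and in 70 of the 224. These 39 had a median GC content of 45.3% and 12 C2H2 motifs, against 53.4% and 7.5 motifs for the other 116. Between fingers, many members repeat nearly the same linker, so a footprint can be shared between genes. The following 28 bases, about the length of a footprint, occur in the coding sequence of 22 annotated genes, 8 of them *Zfp* genes of the knockout table and 1 of those also listed in the transgenic tables, and the capitals mark codons of the linker between fingers.
Zfp87, chr13:67618448-67618475, minus strand: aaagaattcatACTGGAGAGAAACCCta
Among members, 20 of 155 and 42 of 224 had more than 10% of their windows of 28 bases in common with another gene. For *Zfp955b* this share was 73.7%, for *Zfp931* 72.5% and for *Zfp781* 100%, and footprints in such shared windows cannot be assigned by sequence alone. *Zfp235*, *Zfp369*, *Zfp869* and *Zfp51* had shares of 17.2%, 14.7%, 15.2% and 14.0%.

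In control striatum the family was thinly expressed. Median footprints per kb of CDS, in nonTG control next to GS LRRK2 TG, were 140.7 normalized reads for the *Zfp* genes and 387.9 for all transcripts, and median RNA per kb was 175.7 against 467. In WT striatum the medians were 42.2 against 113.4 footprints and 80.2 against 193.3 RNA reads per kb. The member with the highest footprint level per length was *Zfp706* (uc007vnb.1, chr15:36926786-36937157), a short protein with 1 finger, at 6799 normalized reads per kb in nonTG control of the GS LRRK2 TG table and 9148 in the other transgenic table. It was followed by *Zfp365*, a partner of Disc1 in neurons and oligodendrocytes, at 1661 and 2187 per kb. *Zfp207*, which binds the spindle checkpoint protein Bub3, stood at 1384 and 1649 per kb, *Zfp385a*, an RNA-binding protein that transports mRNA in dendrites, at 1130 and 1376, and *Zfp428* at 981 and 1233. The same 5 genes led in both transgenic tables, whose controls are both labelled nonTG. The files do not say which of the 3 nonTG libraries enter each control mean, and that of GS/DA LRRK2 TG resolves into 2.

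TE of the family in control tissue was spread widely around that of other genes. The median log2 TE was -0.21 against -0.17 for all transcripts in nonTG control of the GS LRRK2 TG table, -0.02 against 0.04 in that of GS/DA LRRK2 TG and -0.71 against -0.64 in WT. Among members with both control means at 200 or more, *Zfp955b* had the highest log2 TE of nonTG control in both transgenic tables, 1.66 and 1.64. It was followed by *Zfp445* with 1.32 and 1.56. *Zfp871* (1.12), *Zfp931* (1.08) and *Zfp266* (1.03) came next in the GS LRRK2 TG table, and *Zfp354c* (1.51), *Zfp788* (1.34) and *Zfp655* (1.30) in the other. The low end was held by *Zfp180*, with -2.34 and -2.02, and *Zfp646*, with -2.27 and -2.04, the latter a protein of 30 C2H2 motifs. *Zfp106*, an RNA-binding protein needed by motor neurons, followed with -1.99 and -1.80. *Zfp358* (-1.84) and *Zfp651* (-1.83) complete the low end of the GS LRRK2 TG table, and *Zfp236* (-1.79) and *Zfp219* (-1.64) that of the GS/DA LRRK2 TG table. Members rich in A and T had higher TE from the group means: across the members, Spearman's rho between GC content and control log2 TE was -0.55 (n = 155), -0.48 (n = 155) and -0.49 (n = 223) in the 3 tables, a description across genes, which are not independent replicates, and over all transcripts it was -0.33 (n = 8329), -0.22 (n = 8329) and -0.36 (n = 9272). Control TE depends on the RNA-Seq library too, since *Zfp219* had 247.2 and 1112 RNA reads in the 2 resolved nonTG libraries, so the ranks and medians given here do as well. Members with a KRAB-like stretch had a median control log2 TE of 0.07, against -0.49 for the others, in the GS LRRK2 TG table, 0.29 against -0.22 in that of GS/DA LRRK2 TG and -0.52 against -0.78 in WT.

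The 5′UTR of the *Zfp* genes had a more negative predicted folding energy at the median, -116.1 against -91.2 kcal/mol for all transcripts in the transgenic tables. In the knockout table it was -109 against -90.4 kcal/mol. By its column name the energy is the minimum over isoforms, and it was not divided by the length of the 5′UTR. The most negative energies belonged to *Zfp263* (-594 kcal/mol), *Zfp503* (-568 kcal/mol), a factor of striatal development, and *Zfp236* (-524 kcal/mol). The least negative belonged to *Zfp703* (-2.2 kcal/mol), *Zfp277* (-3.2 kcal/mol) and *Zfp839* (-3.3 kcal/mol). Across members, folding energy and the TE difference had a rho of -0.01 (n = 155) for GS LRRK2 TG, 0.02 (n = 155) for GS/DA LRRK2 TG and 0.13 (n = 224) for LRRK2 KO. With control log2 TE the rho was 0.26, 0.24 and 0.39. Among *Zfp* genes a more negative folding energy thus went with lower TE in control tissue, and little with how TE differed between genotypes. Over all transcripts, the rho of folding energy was 0.13, 0.14 and 0.22 with control log2 TE. It was -0.08, 0.11 and 0.07 with the TE difference.

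In the group means of GS LRRK2 TG striatum, a larger share of *Zfp* genes than of all transcripts was TE up. Their median RNA was lower than in nonTG control while footprints were level, and the difference from other genes was not tested. Of the 155 members, 40 (25.8%) were TE up, against 8.01% of all transcripts, and 7 (4.52%) were TE down, against 3.91%. The TE difference was above 0 for 111 of the 155 members, with a median of 0.13 against 0.02 for all transcripts and a range from -0.68 to 1.13. By assay, the median footprinting change was 0.01 (0.00 for all transcripts) and the median RNA-Seq change -0.12 (-0.02), with RNA above control for only 30 of 155 members. A log2 change of RNA of -0.5 or lower was seen for 15 members (9.68%), against 2.72% of all transcripts, and 0.5 or higher for 0, against 0.233%. For footprints, 0 members passed either limit, against 0.14% of all transcripts at 0.5 or higher and 0.198% at -0.5 or lower. In bulk tissue, fewer cells of a type and less RNA per cell cannot be told apart.

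**Figure D1:**
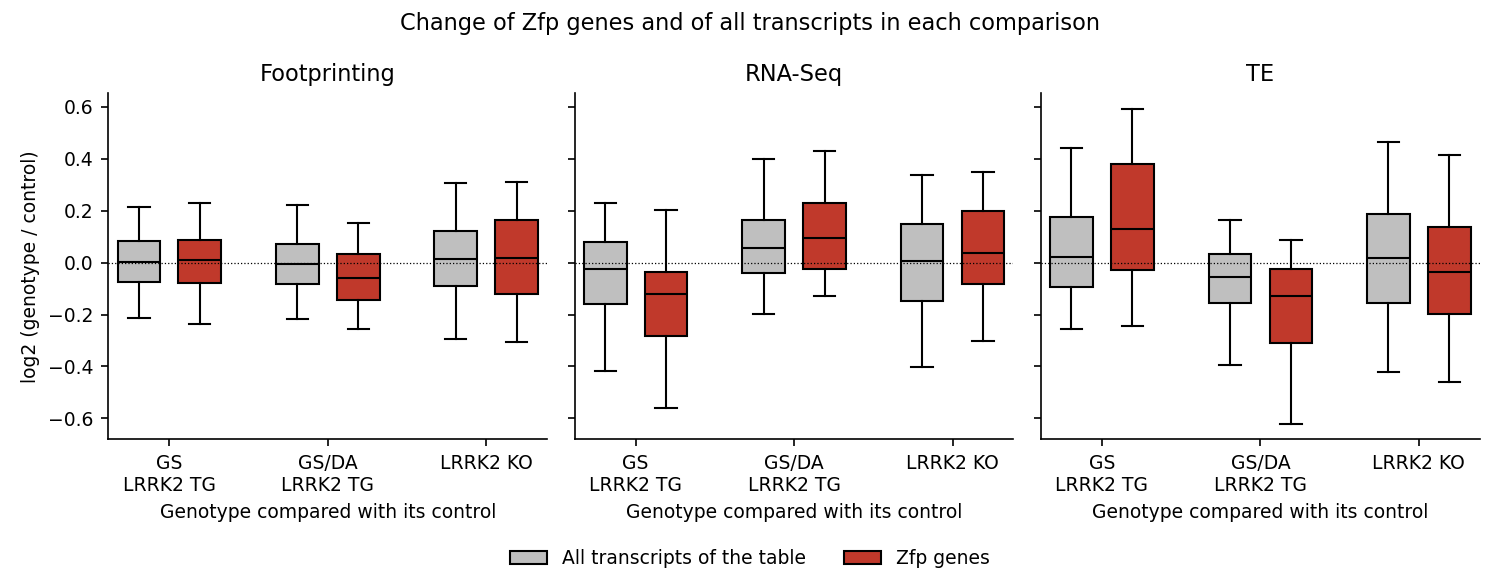
Log2 change of footprinting, of RNA-Seq and of TE between each genotype and its control, for all transcripts of a table (grey) and for the *Zfp* genes (red, 155, 155 and 224 transcripts). Boxes span the quartiles with the median as a line and whiskers reach the 5th and 95th percentiles; the median TE difference of the *Zfp* genes was 0.13, -0.13 and -0.04.

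By the median of the members, the RNA side of this pattern came from 1 of the 2 GS LRRK2 TG RNA-Seq libraries. The median RNA-Seq change was 0.05 with library 1 and -0.54 with library 2. *Zfp869* (uc009lxj.1, chr8:72230231-72234623), a KRAB-like member with the highest TE difference (0.63) among members with means of at least 200, had 274.9 and 328.6 footprinting reads in the 2 GS LRRK2 TG libraries against a control mean of 287.4. Its RNA was 332.8 reads in library 1 and 109.2 in library 2, against a control mean of 325.5. *Zfp804a*, a gene at a schizophrenia risk locus (TE difference 0.59), had 278.9 and 334.7 footprinting reads against 272.3, and 333.6 and 91.0 RNA reads against 283.7. Both genes had RNA at or above the control mean in library 1 and far under it in library 2. *Zfp266* (uc009oiu.2, chr9:20299512-20325861; 0.59) had 666.2 and 758.6 footprinting reads against 689.2, and 408.1 and 56.0 RNA reads against 337.9. *Zfp617* (0.59) had 392.6 and 507.3 footprinting reads against 337.8, and 526.2 and 44.8 RNA reads against 322.0. *Zfp369* (0.56) had 420.3 and 405.8 footprinting reads against 410.1, and 457.5 and 58.8 RNA reads against 377.9. For these 3 genes RNA library 1 lay above the control mean, so that with it alone the TE difference was -0.22 for *Zfp266*, -0.29 for *Zfp617*, -0.27 for *Zfp369* and -0.06 for *Zfp804a*, of the opposite sign.

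The lowest TE differences in GS LRRK2 TG were smaller in size, and for most of these genes depended on the RNA library as well. *Zfp62* (-0.43) had 274.9 and 251.4 footprinting reads against a control mean of 297.8, and 979.3 and 16.8 RNA reads against 418.9. *Zfp651* (-0.34) had 743.1 and 1701 RNA reads against 1165, and *Zfp498* (-0.28) had 132.1 and 478.9 against 265.6. Here the 2 RNA libraries lay on either side of the control mean, in one order for *Zfp62* and in the other for *Zfp651* and *Zfp498*. *Zfp687* (-0.22) had 394.1 and 1288 RNA reads against 731.9. *Zfp622*, which works on maturing large ribosomal subunits in the cytoplasm (-0.28), is the one gene of these 5 whose RNA-Seq libraries both lay close to the control mean, with 683.4 and 536.0 footprinting reads against 708.0 and 1529 and 1271 RNA reads against 1336. Outside the rule for named genes, and picked after its values were seen, *Zfp189* (uc008svv.2, chr4:49534048-49544389) had the highest TE difference of all members, 1.13 or 2.18-fold, with 286.8 and 219.6 footprinting reads against 221.7 and 152.0 and 29.4 RNA reads against 173.2.

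The spread between RNA-Seq libraries was wide for the whole family. In GS LRRK2 TG, 65.8% of *Zfp* genes differed more than 2-fold between the 2 RNA-Seq libraries (55.7% of all transcripts), against 1.29% between the 2 footprinting libraries (1.26%). With RNA library 2 alone, the median TE difference of the members was 0.62 or 0.45, depending on the footprinting library, with 32 or 33 members TE up (20.6% or 21.3%, against 9.41% or 9.37% of all transcripts). With RNA library 1 alone it was 0.05 or -0.08, with 17 or 16 members TE up (10.97% or 10.32%, against 7.91% or 8.51%). The size of the median therefore depends on the RNA-Seq library, and with RNA library 1 its sign depends on the footprinting library as well. Since single control libraries were not recovered, no test was made.

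In GS/DA LRRK2 TG striatum the group means point the other way, with *Zfp* RNA higher and footprints slightly lower than in nonTG control. Of the 155 members, 37 (23.9%) were TE down, against 7.36% of all transcripts, and 6 (3.87%) were TE up, against 3.65%. The median TE difference was -0.13 against -0.05 for all transcripts, with a range from -0.95 to 0.37, and it was above 0 for 32 members. The median RNA-Seq change was 0.09 (0.06 for all transcripts) with 108 members above 0, and the median footprinting change -0.06 (-0.01). An RNA change of 0.5 or higher was seen for 6 members (3.87%), against 2.46% of all transcripts, and of -0.5 or lower for 0, against 0.257%. For footprints, 0 members passed either limit, against 0.49% of all transcripts at 0.5 or higher and 0.326% at -0.5 or lower. Both transgenic comparisons draw their control means from the same 3 labelled nonTG libraries per assay, in a mix that the files do not state, so their opposite signs cannot be taken as independent, and values of both are given side by side without a measure of likeness.

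*Zfp644* (uc008ylp.1, chr5:106929913-107126306), which works with the histone methyltransferases Ehmt1 and Ehmt2, had the lowest TE difference, -0.95. Its footprints were 1201 and 1112 reads in the nonTG libraries of sets 1 and 2, and 1084 and 1065 in GS/DA LRRK2 TG. Its RNA was 2342 and 185.0 reads in nonTG control, and 4408 and 132.5 in GS/DA LRRK2 TG. Footprints thus lay slightly lower in both transgenic libraries, while RNA was higher than control in set 1 and lower in set 2. *Zfp788* (-0.82) had 344.9 and 82.9 RNA reads in nonTG control and 605.3 and 65.8 in GS/DA LRRK2 TG, and *Zfp667* (-0.71) had 340.1 and 92.5 in nonTG control and 513.5 and 54.1 in GS/DA LRRK2 TG. Both are KRAB-like members with the same turn between sets. *Zfp317* (-0.65), also KRAB-like, had 291.9 and 299.4 footprinting reads in nonTG control and 231.5 and 228.9 in GS/DA LRRK2 TG. Its RNA was 267.7 and 194.5 reads in nonTG control and 422.7 and 144.2 in GS/DA LRRK2 TG. *Zfp655* (-0.65) had 633.8 and 601.2 footprinting reads in nonTG control and 552.6 and 471.8 in GS/DA LRRK2 TG. RNA of *Zfp655* was 395.8 and 107.4 reads in nonTG control and 565.3 and 89.2 in GS/DA LRRK2 TG. From set 2 of RNA-Seq alone, the TE difference was 0.38 for *Zfp644*, 0.16 for *Zfp788*, 0.46 for *Zfp667* and 0.07 for *Zfp317*, all of the opposite sign.

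At the high end stood *Zfp235* (0.35), a gene of the chromosome 7 run. Its RNA was 465.1 and 295.5 reads in nonTG control and 369.7 and 258.6 in GS/DA LRRK2 TG, lower in both sets. *Zfp148*, a factor that binds GC-rich promoters (0.23), had 4982 and 338.1 RNA reads in nonTG control and 4162 and 239.7 in GS/DA LRRK2 TG, and *Zfp532* (0.21) had 1612 and 1211 in nonTG control and 1269 and 1115 in GS/DA LRRK2 TG, lower in both sets as well. For *Zfp790* (0.19) RNA was 522.8 and 255.1 reads in nonTG control and 622.6 and 143.3 in GS/DA LRRK2 TG, so that set 1 alone gave a TE difference of -0.09. *Zfp384* (0.12) had nearly the same RNA in both groups, 261.9 and 691.0 reads in nonTG control and 255.1 and 673.1 in GS/DA LRRK2 TG.

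**Figure D2:**
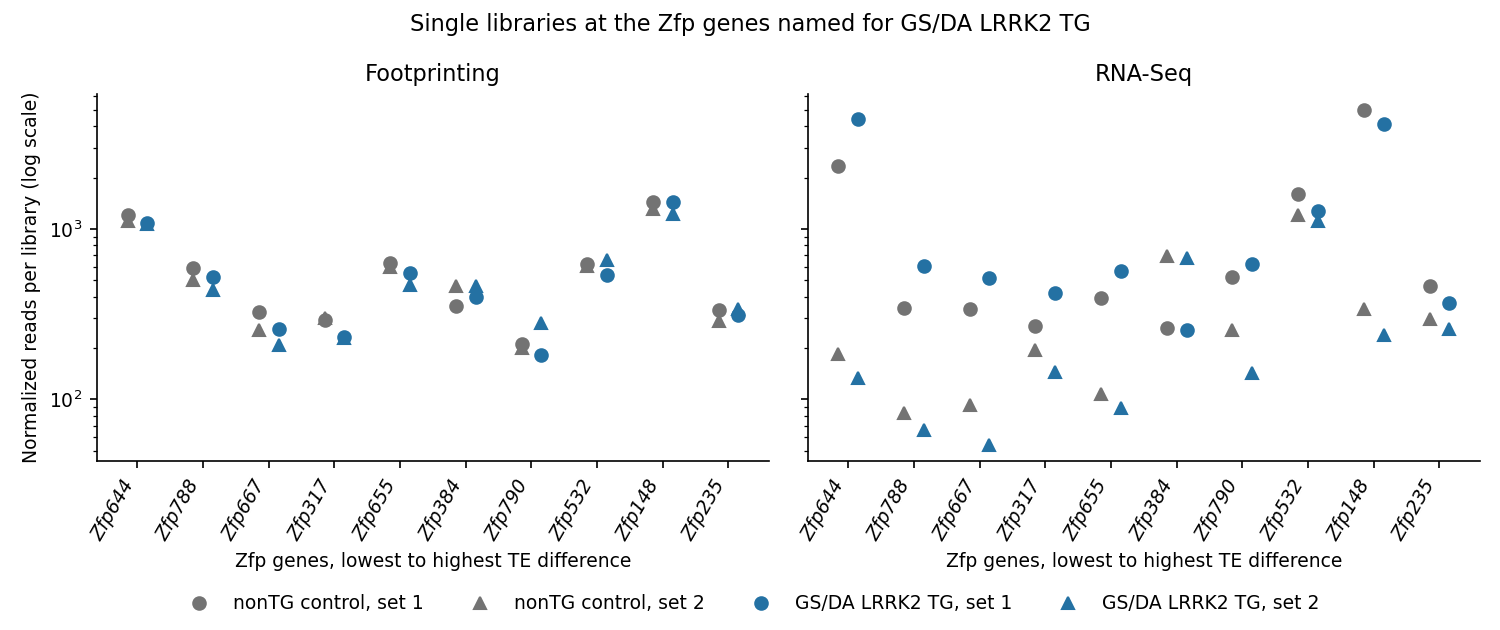
Normalized reads on a log scale in each single library for the 10 *Zfp* genes named for GS/DA LRRK2 TG, ordered by TE difference from -0.95 (*Zfp644*) to 0.35 (*Zfp235*), in nonTG control (grey) and GS/DA LRRK2 TG (blue). For *Zfp644* RNA-Seq the 2 sets lie apart by more than the groups do, at 4408 and 132.5 reads in GS/DA LRRK2 TG, while its 4 footprinting libraries lie between 1065 and 1201.

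In limma, fitted to the single libraries of all 8402 transcripts with recovered reads, 0 *Zfp* genes were called in GS/DA LRRK2 TG for footprinting, RNA-Seq or TE at an adjusted p under 0.05, as were 0% of all transcripts in each. At an unadjusted p under 0.05 the counts were 0 *Zfp* genes in each, and 3, 2 and 0 of all transcripts. The *Zfp* genes with the lowest p were *Zfp263*, *Zfp295* and *Zfp280b* for footprinting, *Zfp295*, *Zfp532* and *Zfp235* for RNA-Seq, and *Zfp511*, *Zfp263* and *Zfp235* for TE, all with an adjusted p of 1. *Zfp263*, which binds promoters, had 261.1 and 274.3 footprinting reads in nonTG control and 229.5 and 180.6 in GS/DA LRRK2 TG, a difference of -0.38. The median standard error of the members' footprinting and RNA-Seq changes was 0.69, and of the TE difference 0.97, with 1 variance for both assays. With each assay fitted alone it was 0.14 for footprinting and 0.90 for RNA-Seq, again with 0 *Zfp* genes called by limma and with 3 and 0 of them at an unadjusted p under 0.05 (1.94% and 0%, against 1.84% and 0% of all transcripts). With the library set as a term in limma, the median standard error was 0.13 for footprinting and for RNA-Seq and 0.18 for TE. The calls were again 0, with 1, 5 and 0 *Zfp* genes at an unadjusted p under 0.05 (0.645%, 3.23% and 0%, against 3.33%, 4.65% and 0.405% of all transcripts). Since sets were matched from the values, this residual is small by construction. With the matching crossed, the standard error for footprinting and RNA-Seq was 0.90, and limma had 0 of all transcripts at an unadjusted p under 0.05. From single sets, the median TE difference was -0.24 or -0.18 with set 1 of RNA-Seq, with 38 or 33 members TE down (24.5% or 21.3%, against 7.59% or 6.54% of all transcripts). With set 2 it was 0.07 or 0.09, with 3 or 2 members TE down (1.94% or 1.29%, against 2.98% or 3.37%) and 19 or 29 TE up (12.3% or 18.7%, against 6.01% or 7.68%), so the direction of the family's median turns with the RNA-Seq library.

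**Figure D3:**
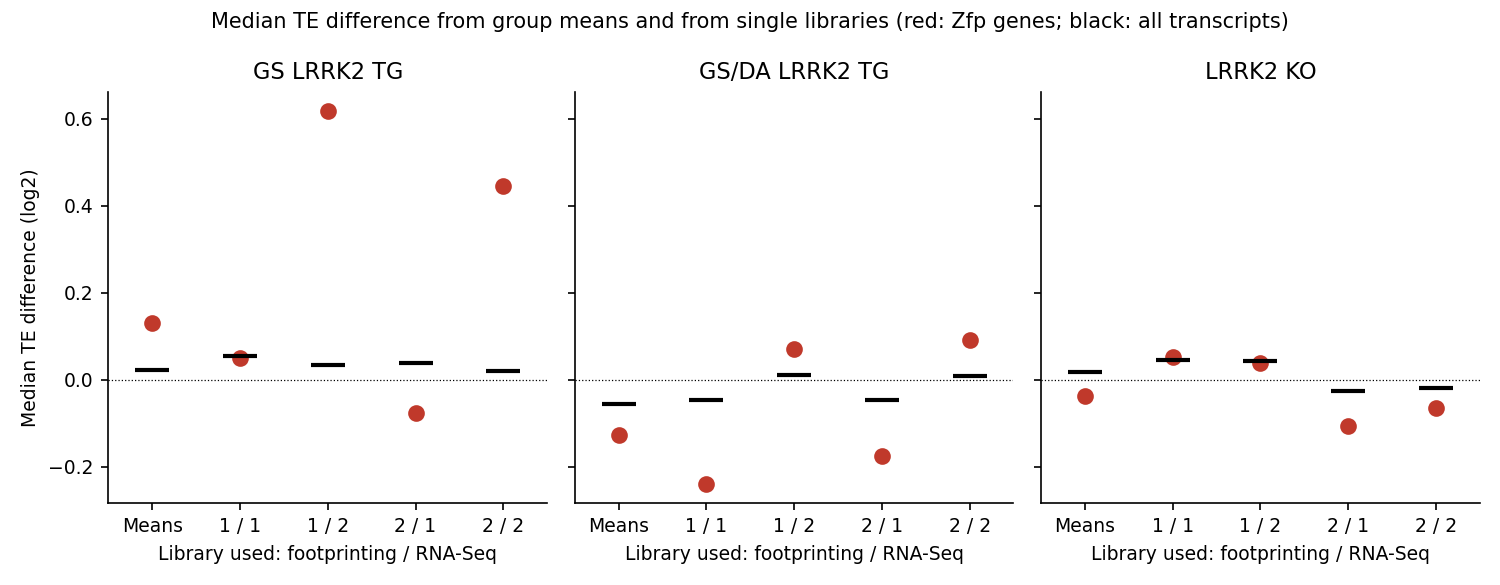
Median TE difference (log2) of the *Zfp* genes (red points) and of all transcripts (black bars), from group means and from 1 library of footprinting and 1 of RNA-Seq, by library (GS LRRK2 TG) or set. The red points move between 0.62 and -0.08 for GS LRRK2 TG and between 0.09 and -0.24 for GS/DA LRRK2 TG, while the bars for all transcripts stay near 0.

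In LRRK2 KO striatum *Zfp* genes were close to the rest of the table. Of the 224 members, 11 (4.91%) were TE up, against 6.23% of all transcripts, and 20 (8.93%) TE down, against 6.02%. The median TE difference was -0.04 against 0.02, with 100 members above 0 and a range from -0.72 to 1.13. The median footprinting change was 0.02, equal to that of all transcripts, and the median RNA-Seq change 0.04 against 0.01. The family is read here at low depth: the lowest of a member's 4 group means was 75.4 reads at the median, against 217 and 266.3 in the transgenic tables, and only 24 members had all 4 means at 200 or more.

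Among those 24, *Zfp266* had the highest TE difference (0.37). Its footprints were 170.5 and 341.1 reads in WT and 207.5 and 338.5 in LRRK2 KO, and its RNA 308.7 and 220.0 in WT and 296.3 and 139.0 in LRRK2 KO. *Zfp207* (0.28) had 526.4 and 660.8 footprinting reads in WT and 655.3 and 730.2 in LRRK2 KO. *Zfp451* (0.24), *Zfp503* (0.22) and *Zfp871* (0.19) followed. The lowest was *Zfp622* (-0.34), with 269.4 and 286.4 footprinting reads in WT and 247.9 and 279.8 in LRRK2 KO, and 323.6 and 387.9 RNA reads in WT and 349.3 and 504.3 in LRRK2 KO, lower in footprints and higher in RNA in both sets. Next came *Zfp574* (-0.33), *Zfp238* (-0.26), *Zfp365* (-0.21) and *Zfp827* (-0.17). None of these 10 genes was TE up or TE down.

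Larger differences were seen in members with few reads. *Zfp189* had 27.3 and 50.6 footprinting reads in WT and 56.8 and 92.3 in LRRK2 KO, and 77.7 and 48.2 RNA reads in WT and 109.7 and 98.0 in LRRK2 KO. It was higher within each set in both assays, and by 0.94 (footprinting) and 0.72 (RNA-Seq) from the group means. *Zfp39*, a KRAB-like member, lay the other way, with 54.5 and 82.6 footprinting reads in WT and 39.0 and 51.8 in LRRK2 KO, and 107.6 and 81.1 RNA reads in WT and 68.1 and 51.6 in LRRK2 KO, by -0.59 and -0.66. *Zfp628* had 82.6 and 69.3 footprinting reads in WT and 48.6 and 60.2 in LRRK2 KO, and the lowest TE difference of the family (-0.72). *Zfp51* had 20.3 and 33.3 footprinting reads in WT and 32.2 and 49.0 in LRRK2 KO and the highest TE difference (1.13), and *Zfp781* had 42.1 and 82.6 footprinting reads in WT and 93.1 and 111.9 in LRRK2 KO. *Zfp511* had 59.2 and 54.6 footprinting reads in WT and 42.5 and 37.8 in LRRK2 KO. Named after their values were seen, the 5 members with a footprinting change of 0.5 or higher (2.23%, against 1% of all transcripts) were *Zfp189*, *Zfp51*, *Zfp597*, *Zfp781* and *Zfp882*, and the 4 at -0.5 or lower (1.79%, against 1.07%) *Zfp36l2*, *Zfp39*, *Zfp511* and *Zfp593*. For RNA-Seq they were *Zfp189* and *Zfp809* (0.893%, against 0.669%), and *Zfp39* and *Zfp51* (0.893%, against 2.51%).

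In limma on the single libraries of 9533 transcripts, 0 *Zfp* genes were called in LRRK2 KO for footprinting, RNA-Seq or TE at an adjusted p under 0.05, as were 0% of all transcripts in each. At an unadjusted p under 0.05 these were 0 *Zfp* genes in each, and 17, 9 and 4 of all transcripts. The lowest p belonged to *Zfp189*, *Zfp511* and *Zfp781* for footprinting, *Zfp39*, *Zfp189* and *Zfp790* for RNA-Seq and *Zfp628*, *Zfp51* and *Zfp511* for TE, all with an adjusted p of 1. With the library set as a term, limma again called 0 *Zfp* genes, with 8, 11 and 5 of them at an unadjusted p under 0.05 (3.57%, 4.91% and 2.23%, against 2.28%, 4.85% and 1.95% of all transcripts), and 5, 4 and 0 of all transcripts called. In that fit *Zfp189* had an adjusted p of 0.353 for footprinting (0.80 ± 0.19, SE) and 0.763 for RNA-Seq (0.67 ± 0.19, SE), higher in 2 of 2 sets. Since sets were matched from the values, the fit has a small residual by construction: with the matching crossed, the median standard error of the members' footprinting and RNA-Seq changes was 0.44 instead of 0.19, and limma had 0 *Zfp* genes at an unadjusted p under 0.05 and 0 of all transcripts called. From single sets the median TE difference was 0.05 or 0.04 with set 1 of footprinting and -0.11 or -0.07 with set 2, so it has no direction that holds across libraries.

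By role, 10 of 14 RNA-binding, decay and ribosome-linked genes are listed in the transgenic tables, and in GS LRRK2 TG they lay on both sides of control. Their median TE difference in GS LRRK2 TG was 0.05, with 3 TE up (30%, against 8.01% of all transcripts) and 1 TE down (10%, against 3.91%). The 3 were *Zfp36l2*, which drives decay of mRNAs with AU-rich elements (0.64), *Zfp106* (0.51) and *Zfp706* (0.42), and the 1 was *Zfp622*. RNA of the 3 lay under the control mean in both GS LRRK2 TG libraries. It was 974.1 and 1032 reads against 1165.5 for *Zfp706*, 2358.5 and 1649.5 against 3062.1 for *Zfp106*, and 41.3 and 145.6 against 150.9 for *Zfp36l2*. *Zfp706* differed from the others in that its footprints were higher, with 1808 and 1801 reads in the 2 GS LRRK2 TG libraries against a control mean of 1571. For GS/DA LRRK2 TG its footprints were 2285 and 1942 reads in nonTG control and 2027 and 1615 in GS/DA LRRK2 TG, lower within each set. The median of the role list was -0.10 in GS/DA LRRK2 TG and -0.08 in LRRK2 KO, where it holds 11 genes, with 0 TE up or TE down in both. *Zfp207*, *Zfp259*, which binds a translation elongation factor, *Zfp326*, of a complex that links transcription to splicing, *Zfp346*, which binds double-stranded RNA, *Zfp385a* and *Zfp385b* had TE differences from -0.15 to 0.13 in GS LRRK2 TG and from -0.15 to 0.07 in GS/DA LRRK2 TG. In LRRK2 KO, *Zfp36l2* had 110.6 and 41.3 footprinting reads in WT and 60.3 and 33.6 in LRRK2 KO (-0.69), and its relative *Zfp36l1* a footprinting change of -0.44.

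Of 8 neural and developmental genes, 7 are listed in each table. Their median TE difference was 0.33 in GS LRRK2 TG (2 TE up, 28.6% against 8.01% of all transcripts), -0.08 in GS/DA LRRK2 TG (2 TE down, 28.6% against 7.36%) and -0.12 in LRRK2 KO (0). The 2 TE up in GS LRRK2 TG were *Zfp804a* and *Zfp365* (0.38), and *Zfp238*, a repressor in the making of cortical neurons, stood just inside the limit at 0.36. *Zfp462* had a TE difference of 0.33, *Zfp521* 0.28, *Zfp536* -0.06 and *Zfp503* -0.13. *Zfp365* was unlike most members in that its RNA libraries lay close, with 3639 and 3425 reads in GS LRRK2 TG against a control mean of 4317, both lower, and with 2058 and 2271 footprinting reads against 2038. The 2 TE down in GS/DA LRRK2 TG were *Zfp804a* (-0.53) and *Zfp462* (-0.39).

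The ubiquitin or SUMO linked members *Zfp91*, a ubiquitin ligase, and *Zfp451*, a SUMO ligase, are both listed. Their TE differences were 0.20 and 0.27 in GS LRRK2 TG (0 called) and -0.29 and 0.24 in LRRK2 KO (0 called). In GS/DA LRRK2 TG they were -0.35 and -0.40 (2 TE down, 100% against 7.36% of all transcripts). *Zfp451* had 848.2 and 233.9 RNA reads in nonTG control and 1212 and 182.9 in GS/DA LRRK2 TG, the same turn between sets as above. Of 5 genes of imprinting and retroelement silencing 0 are listed in the transgenic tables and 1 in that of the knockout, *Zfp809*, which silences retroviral DNA in embryonic cells. It had 93.4 and 52.1 RNA reads in WT and 142.4 and 75.5 in LRRK2 KO, a difference of 0.58, and was TE down (-0.46).

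Of 11 widely expressed activators and repressors, 10 are listed in the transgenic tables and 11 in the knockout table. Their median TE difference was 0.35 in GS LRRK2 TG, with *Zfp110* (0.53), *Zfp161* (0.49), *Zfp644* (0.47) and *Zfp410* (0.42) TE up (40%, against 8.01% of all transcripts). *Zfp281*, a repressor of pluripotency genes, stood at the limit with 0.38, *Zfp143*, an activator at promoters, at 0.33, *Zfp384* at 0.12, *Zfp292* at 0.08, *Zfp148* at -0.18 and *Zfp219* at -0.25. In GS/DA LRRK2 TG the median was -0.19, with *Zfp644*, *Zfp292* (-0.55), *Zfp281* (-0.47) and *Zfp143* (-0.35) TE down (40%, against 7.36%) and *Zfp148* TE up (10%, against 3.65%). RNA of *Zfp644*, *Zfp292*, *Zfp281* and *Zfp143* was higher than control in set 1 and lower in set 2, as in 1242 and 75.5 reads in nonTG control and 1677 and 52.3 in GS/DA LRRK2 TG for *Zfp292*, so these calls rest on set 1. The call of *Zfp644* in GS LRRK2 TG rests on RNA library 2 in the same way, with 1929 and 67.2 reads against a control mean of 1303. In LRRK2 KO the median was 0.03 and 0 were called.

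GC content sorted the members in both transgenic tables. Transcripts of a table were split at the quartiles of CDS GC content, 48.3%, 52.8% and 57.1%. In GS LRRK2 TG, 26 of the 53 members of the lowest quartile were TE up (49.1%, against 20.8% of other transcripts of that quartile), then 9 of 29 (31.0% against 6.48%), 3 of 30 (2.14% of the others) and 2 of 43 (4.65% against 1.08%). In GS/DA LRRK2 TG, 29 of the 53 members of the lowest quartile were TE down (54.7% against 21.1%), then 7 of 29 (24.1% against 3.70%), 1 of 30 (3.33% against 1.32%) and 0 of 43 (0% against 1.96%). In LRRK2 KO, 9 of 100 members of the lowest quartile were TE up (11.4% of the others) and 10 TE down (3.38% of the others). Across members, rho between GC content and the TE difference was -0.55 (n = 155) for GS LRRK2 TG, 0.48 (n = 155) for GS/DA LRRK2 TG and -0.22 (n = 223) for LRRK2 KO. Over all transcripts it was -0.46 (n = 8329), 0.15 (n = 8329) and -0.29 (n = 9272). The ratio of the 2 RNA-Seq libraries of a group itself followed GC content across members, with a rho of -0.90 (n = 155) in GS LRRK2 TG, -0.88 (n = 155) in nonTG control and -0.91 (n = 155) in GS/DA LRRK2 TG, and -0.32 (n = 223) in WT and -0.64 (n = 223) in LRRK2 KO. For the 2 footprinting libraries it was 0.49, -0.68, -0.70, 0.77 and 0.39, with the groups and n in the same order. With the trend on GC content over all transcripts taken off, 33 members were TE up in GS LRRK2 TG (7.23% of all transcripts) and 28 TE down in GS/DA LRRK2 TG (6.33% of all transcripts). The part of base composition in the RNA-Seq libraries in these counts was not tested.

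**Figure D4:**
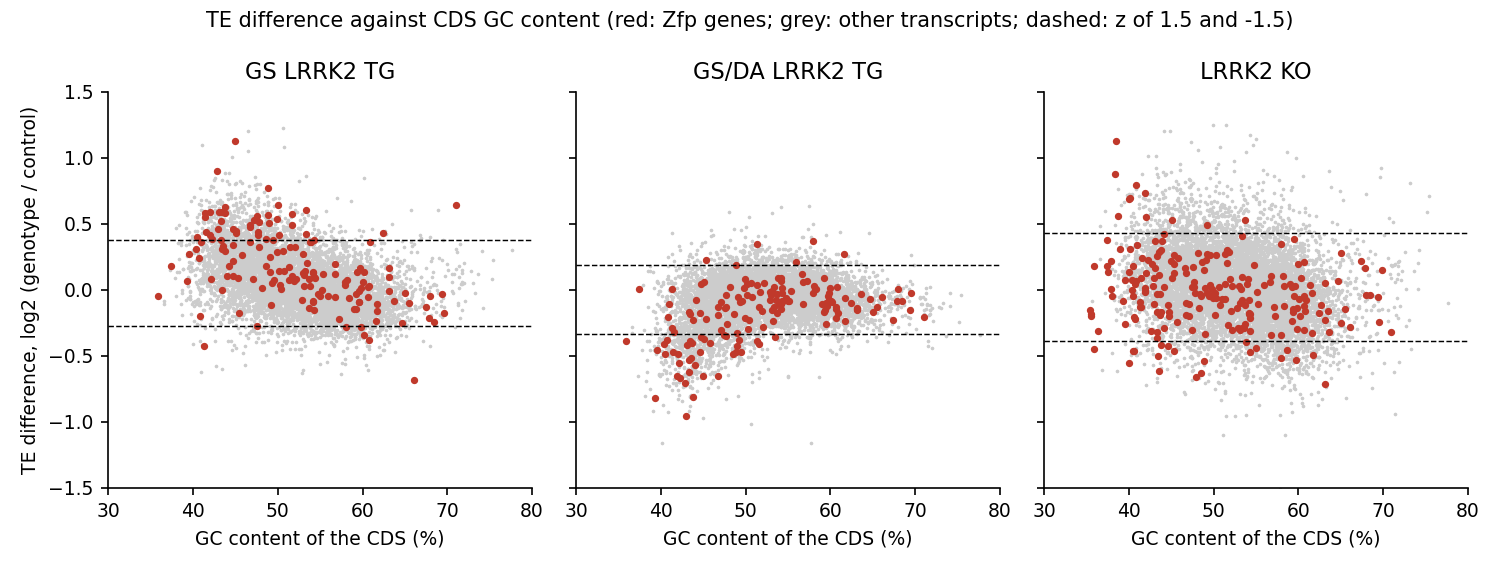
TE difference (log2) against CDS GC content (%) for *Zfp* genes (red) and other transcripts (grey) in each comparison, with dashed lines at a *z* score of 1.5 and -1.5; a few other transcripts lie beyond the axes. Red points above the upper line gather at low GC content for GS LRRK2 TG (26 of 53 members of the lowest quartile), and red points under the lower line for GS/DA LRRK2 TG (29 of 53).

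Members with a KRAB-like stretch, which are poorer in GC, are given beside the others; the difference between them was not tested. In GS LRRK2 TG 14 of 39 were TE up (35.9%), with a median TE difference of 0.29, against 26 of the other 116 (22.4%), with 0.10, and TE down were 2.56% and 5.17%. Of all transcripts, 8.01% were TE up and 3.91% TE down in that comparison. TE down in GS/DA LRRK2 TG were 15 of 39 (38.5%), median -0.21, against 22 of 116 (19.0%), median -0.11, and TE up were 2.56% and 4.31%. There, 7.36% of all transcripts were TE down and 3.65% TE up. In LRRK2 KO 5 of 70 were TE up (7.14%, against 6.23% of all transcripts) and 8 TE down (11.4%, against 6.02%). Of 25 cofactors through which KRAB proteins silence chromatin, 21 are listed. Of these, 4 (19.0%, against 8.01% of all transcripts) were TE up in GS LRRK2 TG, the heterochromatin proteins *Cbx1*, *Cbx3* and *Cbx5* and the deacetylase *Hdac2*, and the median TE difference was 0.12. TE down in GS/DA LRRK2 TG were 3 (14.3%, against 7.36%), *Cbx3*, *Cbx5* and *Mphosph8*, with a median of -0.08, and in LRRK2 KO 2 (9.52%, against 6.23%) were TE up, *Cbx1* and *Cbx3*, and 1 (4.76%, against 6.02%) TE down, *Daxx*, with a median of 0.01. In the transgenic comparisons most of these calls rest on 1 RNA-Seq library or set as well: *Cbx3* had 1691 and 262 RNA reads in GS LRRK2 TG against a control mean of 1248, with *Cbx5* and *Hdac2* likewise above control in library 1 and under it in library 2. In nonTG control it had 2286 and 656 RNA reads and in GS/DA LRRK2 TG 3096 and 413, and *Cbx5* and *Mphosph8* turn between sets in the same way. *Trim28*, the scaffold that KRAB domains bind, had TE differences of -0.12, 0.04 and -0.07 in that order.

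Markers of other cells differed between libraries as well as between groups. Of 5 markers of cortical projection neurons, 3 are listed in the table of GS/DA LRRK2 TG, *Slc17a7* being the most abundant per length, and their footprints summed to 1630 and 1056 reads in nonTG control and 4104 and 2574 in GS/DA LRRK2 TG. Of 4 choroid plexus markers 2 are listed, *Ttr* being the more abundant, with footprint sums of 1489 and 17613 reads in nonTG control and 5525 and 1440 in GS/DA LRRK2 TG. The 2 GS LRRK2 TG footprinting libraries held 431.0 and 2302 reads of the same 3 cortical markers, against a control mean of 1612, and 682.0 and 1239 of the 2 choroid plexus markers, against 4239. RNA-Seq sums of the cortical markers were 914.6 and 1965 reads in nonTG control and 2408 and 4031 in GS/DA LRRK2 TG. In the 2 GS LRRK2 TG libraries these sums were 1410 and 732.3 reads, against a control mean of 1851. Striatal markers had a median footprinting change of -0.09 in GS LRRK2 TG, -0.22 in GS/DA LRRK2 TG and 0.12 in LRRK2 KO. Their footprints summed to 114703 and 78401 reads in the GS LRRK2 TG libraries against a control mean of 104441, and to 34944 and 25060 in WT and 37170 and 25069 in LRRK2 KO, while for GS/DA LRRK2 TG only the means are complete, 140104 in control and 112529. The 5 astrocyte markers (*Slc1a3* the most abundant per length) had median footprinting changes of 0.09, 0.11 and -0.12, and 4 of 5 microglia markers (*C1qb*) 0.05, 0.13 and 0.24, ordered as for the striatal ones. The part of these markers in the values of the *Zfp* genes was not tested.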

How the data were processed

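The authors aligned footprinting and RNA-Seq reads (CASAVA 1.8, TopHat2 2.0.11, Bowtie2 2.2.2, mm9), counted reads on coding sequence and normalized them with DESeq 1.20; the deposited signal values are group means of normalized reads, 10 digits long. The deposited score values are predicted folding energies of the 5′UTR in kcal/mol, which the authors took from the UCSC genome database. The columns of TE, TE difference and z score in the files were not used. Size factors and single-library reads were solved from the digits of the means, unique for 98.5 to 99.96% of transcripts per column (0.0811 to 1.32% after a shift of the values). The limma 3.58.1 model (R 4.3.3) used log2 of normalized reads plus 10, with adjustment over all transcripts, and was tested on simulated data. A count test was not made, since the counts are derived from means. Motifs, KRAB-like stretches and GC content were read from annotated coding sequences of the mm9 build, as were shared windows of 28 bases (Biopython 1.88, Python 3.11.15, numpy 2.4.6, pandas 2.3.3, scipy 1.17.1, statsmodels 0.14.6, matplotlib 3.10.9). Named genes are the 5 highest and 5 lowest by TE difference, with all 4 means at 200 or more. The 5 highest by footprints per kb were taken without a minimum. The 5 highest and 5 lowest by control TE had both control means at 200 or more. Also named are the 3 at either end of folding energy, the 3 of lowest p per limma contrast, and the role lists. Members and lists were chosen with earlier results of these data known. Alternatives were higher minima of the group means, other cutoffs, pseudocounts, trends on GC content and on level, single libraries, and other limma fits.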

Additional observations from a re-analysis of the deposited data

How the results depend on the processing

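No paired analysis was possible because the deposited columns carry no replicate numbers; the library set used as a term in limma was matched from the values instead. Of 78 alternatives for the medians, 67 moved them by less than the spread between single libraries, 6 moved them further and 5 reversed them; of 66 for counts of TE up or TE down, 32 stayed within 1.5 times. All 76 alternatives for limma, crossed matching of sets and each assay alone among them, gave 0 calls among *Zfp* genes, which says little of stability: for GS/DA LRRK2 TG no transcript at all was called in any fit, *Lrrk2* included. Alternatives on single libraries and the last 2 named were added after the data were seen. Stricter minima of the 4 group means, 2 and 4 times the read minimum of the authors' methods, leave fewer transcripts by construction, and the cause of the other moves was not tested.

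For GS LRRK2 TG, the median TE difference was 0.62 with footprinting library 1 and RNA-Seq library 2, and the median footprinting change -0.073 with library 2, reversed. TE up counts were 23 at a z score of 2 (3.71% of all transcripts), 13 of 62 and 6 of 17 with the stricter minima (7.98% and 7.96%), and 17 and 16 with RNA-Seq library 1 (7.91% and 8.51%). TE down counts were 15 and 2 at z scores of 1 and 2 (12.9% and 1.03%), 4 and 1 with the stricter minima (3.79% and 3.27%), and 4, 0, 2 and 1 from single libraries (2.15%, 0.187%, 1.81% and 0.526%). RNA-Seq library 1 reversed *Zfp804a* (-0.061), *Zfp266* (-0.22), *Zfp617* (-0.29), *Zfp369* (-0.27), *Zfp651* (0.38) and *Zfp498* (0.93), and library 2 *Zfp62* (4.46).

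For GS/DA LRRK2 TG, RNA-Seq set 2 reversed the median TE difference (0.070 and 0.090) and the median RNA-Seq change (-0.12). TE up counts were 3 at a z score of 2 (1.12% of all transcripts), 3 of 81 and 2 of 27 with the stricter minima (3.19% and 2.47%), and 19 and 29 with RNA-Seq set 2 (6.01% and 7.68%). TE down counts were 22 at a z score of 2 (4.09%), 17 and 8 with the stricter minima (7.58% and 7.35%), and 3 and 2 with RNA-Seq set 2 (2.98% and 3.37%). RNA-Seq set 2 reversed *Zfp644* (0.38), *Zfp788* (0.16), *Zfp667* (0.46) and *Zfp317* (0.071), and set 1 *Zfp790* (-0.086).

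For LRRK2 KO, set 1 of footprinting with set 1 of RNA-Seq, numbered separately, reversed the median TE difference (0.052). The median footprinting change was 0.11 with the higher minimum and 0.10 in set 1, and the median RNA-Seq change 0.080 and 0.077 with the stricter minima and 0.071 in set 1. TE up counts were 23 and 6 at z scores of 1 and 2 (14.3% and 2.90% of all transcripts), 0 of 15 and 0 of 2 with the stricter minima (6.38% and 6.70%), and 20, 29 and 19 from single sets (5.75%, 6.43% and 5.87%). TE down counts were 44 and 7 at z scores of 1 and 2 (14.8% and 2.18%), and 1 and 0 with the stricter minima (6.04% and 6.82%).

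Sign turns that stayed within the spread between single libraries were seen for the medians in GS LRRK2 TG (TE -0.08 with footprinting library 2 and RNA-Seq library 1, footprinting -0.01 with the lower of the stricter minima, RNA-Seq 0.05 with library 1) and in LRRK2 KO (TE 0.04 with the higher minimum and with set 1 of footprinting and set 2 of RNA-Seq, footprinting -0.01 in set 2), and for *Zfp687* (0.88), *Zfp207* (-0.04) and *Zfp871* (-0.20).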

Other observations

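Zinc finger genes outside the *Zfp* series were counted in the same way. Of 41 other C2H2 genes in the transgenic tables, 4 were TE up (9.76%, against 8.01% of all transcripts) and 3 TE down (7.32%, against 3.91%) in GS LRRK2 TG, with a median TE difference of 0.09. In GS/DA LRRK2 TG 5 were TE up (12.2%, against 3.65%) and 6 TE down (14.6%, against 7.36%), with a median of -0.05. Of 47 genes with other zinc folds, 8 were TE up (17.0%) and 1 TE down (2.13%) in GS LRRK2 TG, median 0.08, and 3 TE up (6.38%) and 7 TE down (14.9%) in GS/DA LRRK2 TG, median -0.08. In LRRK2 KO, 6 of 53 other C2H2 genes were TE up (11.3%, against 6.23% of all transcripts) and 2 TE down (3.77%, against 6.02%), and of 53 with other zinc folds 0 were TE up and 2 TE down (3.77%). Named after their values were seen, the CCCH genes of the *Zc3h* series had 5 of 12 members TE up in GS LRRK2 TG (41.7%), and the *Zmym* genes 3 of 6 TE down in GS/DA LRRK2 TG (50%).

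The 4 *Egr* genes, activity-induced C2H2 factors picked after their values were seen, were lower in both assays in both transgenic comparisons, whose controls are both labelled nonTG. Their median changes were -0.39 (footprinting) and -0.43 (RNA-Seq) in GS LRRK2 TG and -0.73 and -0.66 in GS/DA LRRK2 TG, against 0.08 and -0.16 in LRRK2 KO.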
